A study of Oryza sativa with 6 samples.

Results

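The root types of IR29, a rice (Oryza sativa) cultivar labelled salinity sensitive, were described across 20256 loci. The loci were chosen by their level: a scaled fragment count of at least 10 in at least 1 of the 3 IR29 libraries. They made up 53.2% of the 38042 loci in the table. The locus nearest above the minimum had a highest scaled count of 10.4, and the nearest below it 9.37. The IR29 libraries came from S-type lateral roots, L-type lateral roots and nodal roots, with 1 library each. Mulai, labelled salinity tolerant, gave 3 further libraries of the same root types, also 1 each, and serves here as a comparison that played no part in the choice of loci. All 6 libraries were strand-specific and made from total RNA of plants under 1 set of day and night conditions. The labels name no salt treatment, plant age or sampled stretch of root, and do not say how many plants entered a library.

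Nodal roots are the main axes of the rice root system and emerge from the nodes of the stem. Laterals form on them in a pair of classes. L-type laterals are long, thicker, and branch again. S-type laterals are short, thin and do not branch, and their growth soon ends. The comparison asks how transcript levels differ over these classes within 1 cultivar, and whether L-type laterals lie between the other root types or apart from both.

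The IR29 libraries held 4083173 reads (S-type), 3891153 (L-type) and 4253677 (nodal), against 5631504 to 7904454 in the Mulai libraries. At least 1 read was seen at 22860 loci in S-type, 22186 in L-type and 23501 in nodal roots of IR29. The authors had scaled the counts so that 1 read was worth 1.504 units in the S-type, 1.17 in the L-type and 1.15 in the nodal library. Folds below are differences of log2(scaled count + 1), which understate the change of low loci. A difference of at least 2-fold, or 1 on that scale, is called a step. With 1 library per root type no step has a replicate check and no test was made. The authors' deposited variance gives a standard deviation with a median of 51.4% of the value in S-type, 51.3% in L-type and 51.3% in nodal roots, among the loci at 100 or more. It is a model estimate and not a spread between replicates, and on it a locus can pass a step of 2-fold within 1 SD of each value. The identifiers of the table carry no gene names, so that marker genes of root types or cell types could not be checked and no function can be given to a locus.

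About as many IR29 loci were higher as lower in S-type than in nodal roots. S-type roots were a step above nodal roots at 5161 loci (25.5%) and a step below at 4927 (24.3%). L-type roots were a step above nodal roots at 3966 loci (19.6%) and below at 4611 (22.8%). S-type roots were a step above L-type roots at 4790 loci (23.6%) and below at 3613 (17.8%). In Mulai, over the same loci, the shares above and below were 19.3% and 22.3% for S-type against nodal, 11.5% and 9.62% for L-type against nodal, and 11% and 16% for S-type against L-type roots. At 16-fold the directions in IR29 were less even. S-type roots were above nodal roots at 716 loci and below at 481, and L-type roots were above nodal roots at 140 loci and below at 394. S-type roots were at least 16-fold above L-type roots at 563 loci and below at 146.

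These splits depend on how the libraries are scaled. In the authors' scaling the median fold over all 20256 loci was 0.01 for S-type over nodal, 0.02 for L-type over nodal and 0 for S-type over L-type. Scaled to equal totals of reads, the medians were -0.31, 0.12 and -0.40 for the same pairs. Of the loci a step apart in S-type and nodal roots, 39.6% were then higher in S-type roots, against 51.2% in the authors' scaling. Of those a step apart in S-type and L-type roots, 38.4% were higher in S-type roots, against 57% in the authors' scaling. Of those a step apart in L-type and nodal roots, 51.3% were higher in L-type roots at equal totals (4505 above, 4275 below), against 46.2% in the authors' scaling, so that the more frequent direction turned. TMM and median of ratios scaling, which like the authors' scaling set the bulk of loci level, moved these shares by less than 3 percentage points.

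The 3 most abundant loci of IR29 S-type roots were all graded, with the highest value in S-type and the lowest in nodal roots. The first had a scaled count of 43696 in S-type, 5859 in L-type and 2325 in nodal roots, and took 0.712% of the S-type reads. The second had 38675 in S-type, 15863 in L-type and 2651 in nodal roots. It was also the second most abundant locus of L-type roots. The most abundant locus of L-type roots had 8006 in S-type, 16417 in L-type and 1619 in nodal roots. The most abundant locus of nodal roots had 18823 in S-type, 8474 in L-type and 30881 in nodal roots, so that its lowest level was in L-type roots. Of the 100 loci with the highest scaled counts in each library, 46 were shared by S-type and L-type roots, 34 by L-type and nodal roots and 20 by S-type and nodal roots, with 16 in all 3.

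Each locus was placed in 1 of 13 exclusive patterns by its steps. The order of the IR29 root types in the levels and read shares given below for a pattern thus largely follows from its rule. In 6541 loci (32.3%) no pair of IR29 root types was a step apart. Monotonic loci, with L-type between the others by a step on each side, numbered 910 with S-type highest (4.49%) and 576 with nodal highest (2.84%). At equal totals of reads they numbered 720 and 713. In another 574 (2.83%) and 674 (3.33%) loci S-type and nodal roots were a step apart with L-type between them in smaller steps, S-type highest in the first set. S-type roots alone differed, by a step from both others, in 1561 loci where they were high (7.71%) and 1405 where they were low (6.94%). Nodal roots alone were high in 1626 loci (8.03%) and low in 1418 (7%). L-type roots were extreme by a step from both others in 1037 peaks (5.12%) and 1990 troughs (9.82%). In 1196 (5.9%) and 748 (3.69%) loci L-type was the highest or the lowest, but by a step from 1 of the others alone. Between 1509 and 1684 loci per pair lay within 0.1 of the step on the log2 scale, so that the borders of these patterns are crowded. In Mulai the small-step sets held 5.13% and 5.11% and the partly L-extreme sets 2.69% and 2.47% of the same loci.

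**Figure D1:**
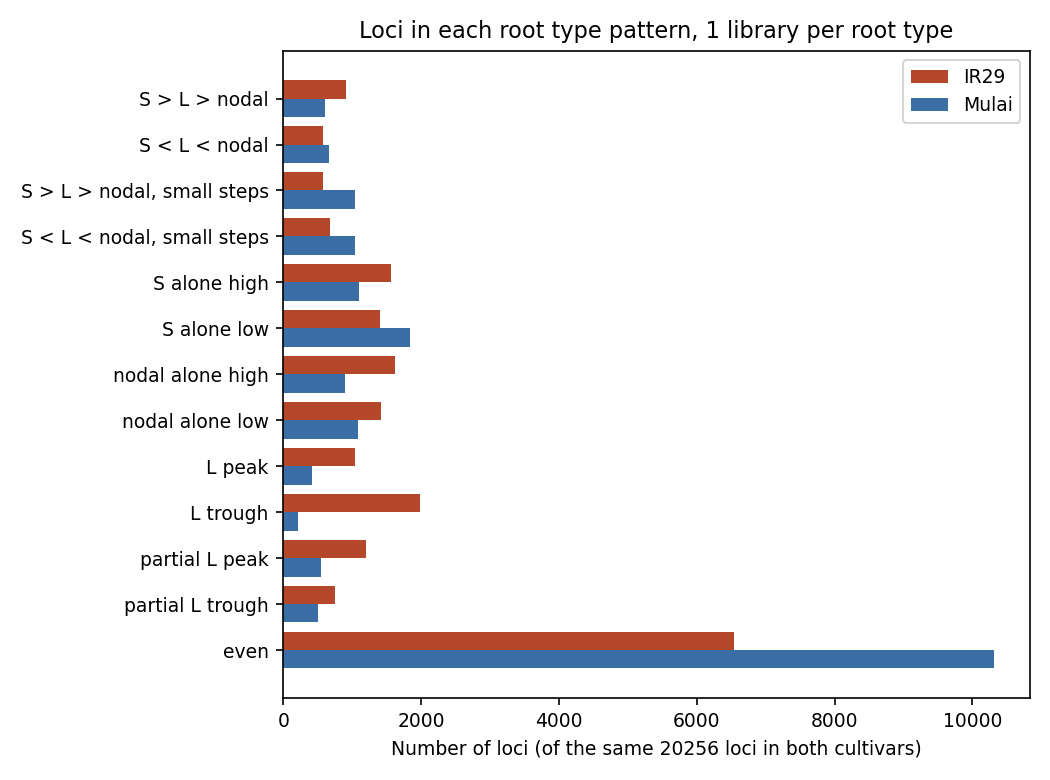
Number of loci in each of 13 patterns, for the same 20256 loci in IR29 (upper bar) and Mulai (lower bar), 1 library per root type; a pattern names the order of S-type, L-type (L) and nodal levels. The widest gap in ratio is in L troughs, 1990 in IR29 and 214 in Mulai, and 6541 loci were even in IR29 against 10316 in Mulai.

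The monotonic loci with S-type highest were more abundant than those with nodal highest. The mean scaled count over the 3 libraries had a median of 123 in these loci, against 28.2 in those with nodal highest and 98.0 in all 20256 loci. They took 15.6% of the reads of S-type, 5.34% of L-type and 1.40% of nodal roots. Of the 100 loci with most reads in S-type roots, 31 had this pattern. The loci with nodal highest and S-type lowest took 0.181% of the S-type, 0.942% of the L-type and 3.24% of the nodal reads. In 211 of those 576 loci S-type roots had no read, and in 169 of the 910 loci with S-type highest nodal roots had none.

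The steepest gradients were those whose smaller step was largest among loci with a mean of at least 100. XLOC_033938 had 10039 (S-type), 111 (L-type) and 3.46 (nodal, 3 reads), with deposited SDs of 8671, 60.9 and 3.87 in that order. Its S-type value was 90.2 times its L-type value (95% counting interval 73.7 to 112), and its L-type value 32.2 times its nodal value (10.7 to 159). Both steps were larger than the deposited SDs allow for overlap. XLOC_015495 had 959 in S-type, 18.7 in L-type and 0 in nodal roots. It was 51.2-fold higher in S-type than in L-type roots (31.3 to 90.1). Against a floor of 3 reads it was at least 277-fold higher in S-type and at least 5.42-fold higher in L-type than in nodal roots. Mulai showed the same order for both loci, with 46757, 1138 and 16.8 for XLOC_033938 and 243, 49.6 and 14.4 for XLOC_015495 in S-type, L-type and nodal roots. In Mulai XLOC_015495 was thus graded less steeply, 16.8-fold higher in S-type than in nodal roots (11.1 to 26.7).

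In the opposite direction XLOC_002289 had no read in S-type roots, 14.1 in L-type (12 reads) and 1373 in nodal roots. Its L-type value was 97.7-fold lower than its nodal value (55.7 to 190), and its S-type value at least 3.11-fold lower than its L-type value, with 3 reads as the floor. XLOC_017768 had 6.02 (S-type, 4 reads), 102 (L-type) and 2570 (nodal). It was 16.9-fold lower in S-type than in L-type roots (6.38 to 63.6) and 25.2-fold lower in L-type than in nodal roots (20.4 to 31.6). In Mulai it had 0.890 (1 read), 4.28 (5 reads) and 238 in the same order. The counting intervals cover counting error of these libraries and nothing else.

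**Figure D2:**
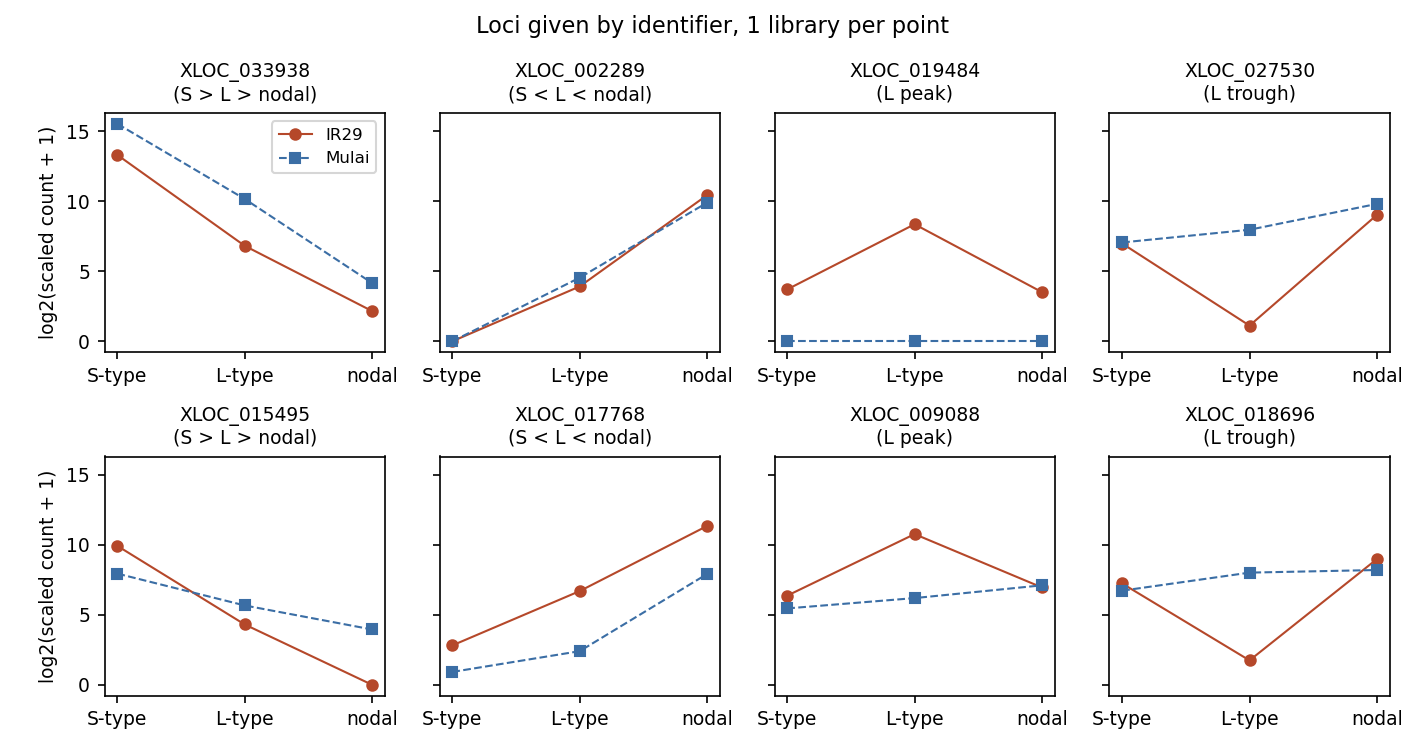
Level of the 8 loci given by identifier, as log2(scaled count + 1), in S-type, L-type and nodal roots of IR29 (circles, solid) and Mulai (squares, dashed), 1 library per point. The graded loci keep their order in both cultivars, while the 2 L peaks and 2 L troughs of IR29 have no such peak or trough in Mulai; XLOC_019484 has no read in any Mulai library.

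Of the loci set apart in S-type roots alone 1561 were high and 1405 low. With libraries scaled to equal totals the low ones were more, with 1157 high and 2405 low. The high ones were more in the other settings, from 1521 against 1465 (TMM) to 1212 against 527 (4-fold step). The high set of 1561 loci took 14.8% of the S-type, 5.08% of the L-type and 4.19% of the nodal reads. Its median S-type over nodal fold was 2.17. The low set took 1.01% of the S-type, 4.23% of the L-type and 4.46% of the nodal reads, with a median fold of -1.79. In the high set the locus with the highest S-type level had 13588 in S-type, 2282 in L-type and 1936 in nodal roots, with a deposited SD of 13340 in S-type roots. In the low set the locus with the highest S-type level had 1212 in S-type, 4066 in L-type and 4346 in nodal roots. A locus read at 10 or more in S-type roots and without a read in both others was rare: there were 111 such loci (0.548%), with a median S-type value of 16.5 and a highest of 200.006. In 64 of these 111 the Mulai value was also highest in S-type roots, as it was in 40.5% of all 20256 loci. The same rule in Mulai was met by 0 of the 111, and by just 9 of all 38042 loci. In Mulai 1 read was worth 0.890 (S-type), 0.855 (L-type) and 0.601 units (nodal). The rule thus asked for more reads in Mulai, and for no read in deeper libraries, here and for the other root types below.

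Loci set apart in nodal roots alone held many of the most abundant transcripts of these roots. The high set took 18.5% of the nodal reads, 4.31% of the S-type and 5.69% of the L-type reads, and 44 of the 100 loci with most reads in nodal roots were among them. The locus of this set with the highest nodal level had 7901 in S-type, 5506 in L-type and 24211 in nodal roots. The loci low in nodal roots alone took 11.9% of the S-type, 13.3% of the L-type and 3.72% of the nodal reads, and 28 of the 100 loci with most reads in L-type roots were among them. The locus of this low set with the highest nodal level had 8127 in S-type, 7145 in L-type and 3290 in nodal roots. At 10 or more in nodal roots and without a read in both laterals were 132 loci (0.652%), with a median of 19.6 and a highest of 375. In 121 of the 132 the Mulai value was also highest in nodal roots, as it was in 38.1% of all loci. The same rule in Mulai was met by 12 of the 132, and by 40 of all 38042 loci.

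L-type roots of IR29 did not lie between the other root types in a large share of loci. Troughs outnumbered peaks, 1990 to 1037, in the authors' scaling and likewise in TMM and median of ratios scaling, but not with libraries scaled to equal totals, where 1543 troughs stood against 1733 peaks. Trough loci took 7.04% of the S-type, 2.12% of the L-type and 8.53% of the nodal reads. Peak loci took 0.963% of the S-type, 3.88% of the L-type and 0.974% of the nodal reads. Both sets were low: the median of the mean scaled count was 35.6 in troughs and 30.4 in peaks. In 373 troughs L-type roots had no read. Just 21 loci (0.104%) were read at 10 or more in L-type roots and not at all in the others, the highest at 26.9. In 6 of these 21 the Mulai value was highest in L-type roots, as it was in 19.3% of all loci. The same rule in Mulai was met by 0 of the 21, and by just 2 of all 38042 loci. These patterns all rest on 1 library, the IR29 L-type library, which had the fewest reads and the fewest loci with a read. The part of that library in them was not tested. The folds of S-type over nodal roots do not use that library, though it took part in the choice of the loci.

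XLOC_027530 had 125 in S-type, 1.17 in L-type (1 read) and 517 in nodal roots of IR29. Its L-type level was 441-fold lower than its nodal level (counting interval 78.8 to 17459), and its S-type level was 107 times its L-type level (18.6 to 4260). In Mulai the same locus had 132 in S-type, 248 in L-type and 892 in nodal roots, with L-type between the others. XLOC_018696 had 149 in S-type, 2.34 in L-type (2 reads) and 499 in nodal roots of IR29, and 104, 256 and 291 in the same order in Mulai. The levels of both loci in S-type roots were close between the cultivars, and the L-type levels far apart. Among peaks, XLOC_019484 had 12.0 in S-type, 326 in L-type and 10.4 in nodal roots. Its L-type level was 31.4-fold above nodal (16.3 to 69.3) and 27.1-fold above S-type (13.5 to 63.3), and no Mulai library held a read of it. XLOC_009088 had 81.2 in S-type, 1723 in L-type and 122 in nodal roots, with deposited SDs of 47.2, 1063 and 75.4 in that order. In Mulai it had 42.7, 71.8 and 136, which is a rank order with L-type between the others.

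The share of L-extreme loci depended on the level. Among the 3763 loci with a mean under 20, 19.7% were troughs and 10.9% peaks. Among the 2567 loci with a mean of 500 or more, 4.75% were troughs and 0.74% peaks. In Mulai, over the same loci sorted by the same IR29 means, 2.84% and 0.156% were troughs in the lowest and the highest class. The trough share was higher in IR29 than in Mulai in each of the 4 level classes. Mulai peaks took 4.46% in the lowest and 1.17% in the highest class, so that at 500 or more there were 19 peaks in IR29 and 30 in Mulai. Monotonic loci with S-type highest took 5.02%, 3.51%, 3.67% and 8.57% of IR29 loci in the 4 classes, lowest to highest. Counting error is larger at low levels, and the IR29 libraries were shallower than the Mulai libraries. Their part in these shares was not tested.

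**Figure D3:**
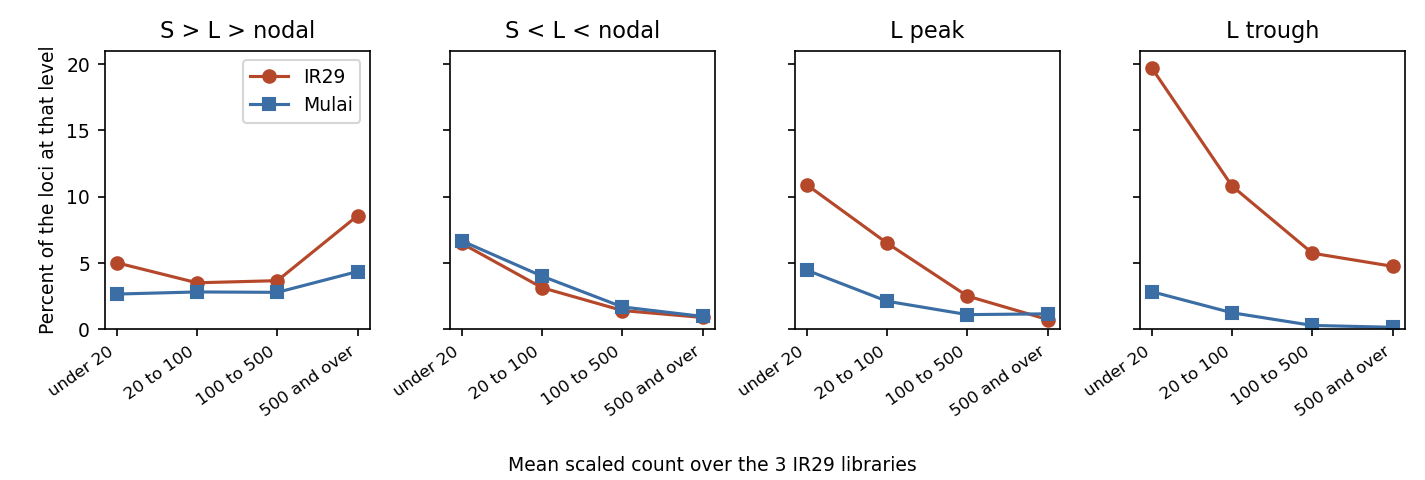
Percent of loci with each of 4 patterns, by the mean scaled count over the 3 IR29 libraries, for IR29 (circles) and Mulai (squares). L troughs took 19.7% of IR29 loci under 20 and 4.75% at 500 and over, and stayed under 3% in Mulai; loci with S-type highest were most frequent at 500 and over, 8.57% in IR29 and 4.36% in Mulai.

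Where S-type and nodal roots were a step apart, L-type roots of IR29 lay about midway, with a wide spread. The position of L-type on the log2 scale, with nodal at 0 and S-type at 1, had a median of 0.494 over 10088 loci, with quartiles of 0.0844 and 0.876. L-type lay beyond nodal in 20.3% of the loci, nearer to nodal in 30.2%, nearer to S-type in 31.6% and beyond S-type in 18%. In Mulai the median was 0.439 over 8421 loci, with quartiles of 0.213 and 0.668, and 10.8% and 7.59% lay beyond nodal and beyond S-type. Loci higher in S-type roots had a median position of 0.428 in IR29 and 0.496 in Mulai. Loci lower in S-type roots had a median position of 0.576 in IR29 and 0.395 in Mulai. The order of these directions was thus opposite in the cultivars, except at equal totals, where IR29 had 0.499 and 0.418 and Mulai 0.558 and 0.364 for loci higher and lower in S-type roots. The difference was not tested. The nodal library enters both differences that make up the position.

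**Figure D4:**
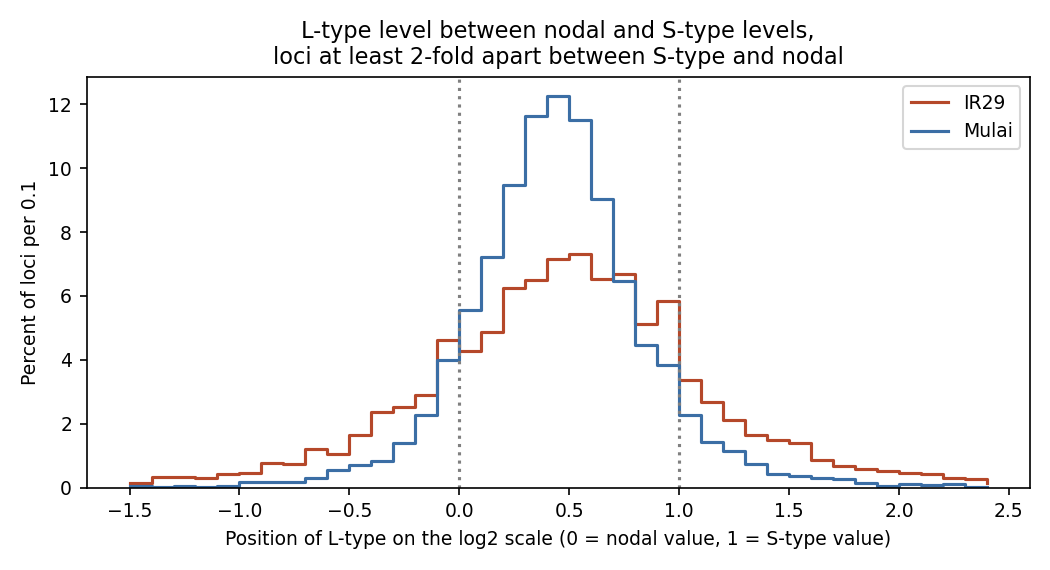
Position of the L-type level between nodal (0) and S-type (1) on the log2 scale, in percent of loci per 0.1, for loci at least 2-fold apart between S-type and nodal roots, in IR29 (10088 loci) and Mulai (8421); positions outside the axis are not drawn. Both curves are highest near the middle, and the IR29 curve is lower and wider, with 20.3% of loci below 0 and 18% above 1.

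The Mulai libraries, which the choice of patterns did not use, were read at the same loci. Of the 13715 IR29 loci with a step, 2316 (16.9%) had the same pattern in Mulai. That share was larger for the gradients than for the L-type extremes, which was not tested. Of the 576 loci with nodal highest 39.4% had that pattern in Mulai, where 3.26% of all 20256 loci had it. Of the 910 with S-type highest it was 26.7%, against 2.97% of all loci. Of the loci low in S-type roots alone 35.8% had that pattern in Mulai, against 9.11% of all loci, and of those high in S-type roots alone 15.9%, against 5.43%. Of the loci high in nodal roots alone it was 20.3%, against 4.41%, and of those low in nodal roots alone 19.8%, against 5.36%. Of the L peaks 6.46% were peaks in Mulai, against 2.06% of all loci, and of the L troughs 2.91% were troughs there, against 1.06%. Many of the L peaks and troughs were low: 411 of the 1037 peaks and 740 of the 1990 troughs had an IR29 mean under 20. Among all loci of that level 4.46% were peaks and 2.84% troughs in Mulai. Each share compares libraries of 1 cultivar with libraries of the other, with no replicate. Cultivar and batch cannot be told apart here: the labels refer either cultivar to an earlier set of records of its own.

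The loci with S-type highest most often appeared in Mulai as low in nodal roots alone, 34.6% of the 910, a pattern in which S-type and L-type roots lie within a step of each other. In Mulai their median fold was 2.09 for S-type over nodal, 1.58 for L-type over nodal and 0.62 for S-type over L-type, against 3.99, 1.74 and 1.96 in IR29. Those with nodal highest had medians of -2.70, -1.40 and -1.26 in Mulai, against -3.94, -1.89 and -1.74 in IR29. The IR29 folds chose these loci and are given as a description. Loci high in S-type roots alone in IR29 had a median L-type over nodal fold of 0.75 in Mulai, against 0.02 in IR29, where the pattern holds it under a step. At 36.2% of them Mulai L-type roots were a step above nodal roots, against 11.5% of all loci.

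The L troughs of IR29 were mostly without a trough in Mulai. No pair of Mulai root types was a step apart in 38.2% of them, fewer than the 50.9% of all 20256 loci. Their median Mulai folds were -0.25 for S-type over nodal, -0.18 for L-type over nodal and -0.07 for S-type over L-type. Mulai L-type roots were a step below nodal roots in 18.2% of the 1990 troughs, against 9.62% of all loci, and a step below S-type roots in 15.1%, against 11%. Steps of S-type roots downwards were also above their share of all loci: Mulai S-type roots were a step below L-type roots in 22.1% of the troughs, against 16%, and a step below nodal roots in 31.9%, against 22.3%. Of the L peaks 50.9% had no step in Mulai, the same share as of all loci. A value under 10 in every Mulai library was found in 32.2% of the 1037 peaks, against 9.5% of the troughs and 7.95% of all 20256 loci. Over the other patterns that share ran from 2.37% (even) to 13.7% (monotonic, S-type highest). A peak could meet the minimum of 10 through its L-type value alone, so its share partly follows from the choice of loci. It was not compared at matched levels. Under its own rule of at least 10 in 1 library Mulai had 221 troughs and 426 peaks among 20371 loci. Troughs were also fewer in Mulai than in IR29 under the other scalings, with 0.923% of loci in Mulai and 7.62% in IR29 at equal totals.

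**Figure D5:**
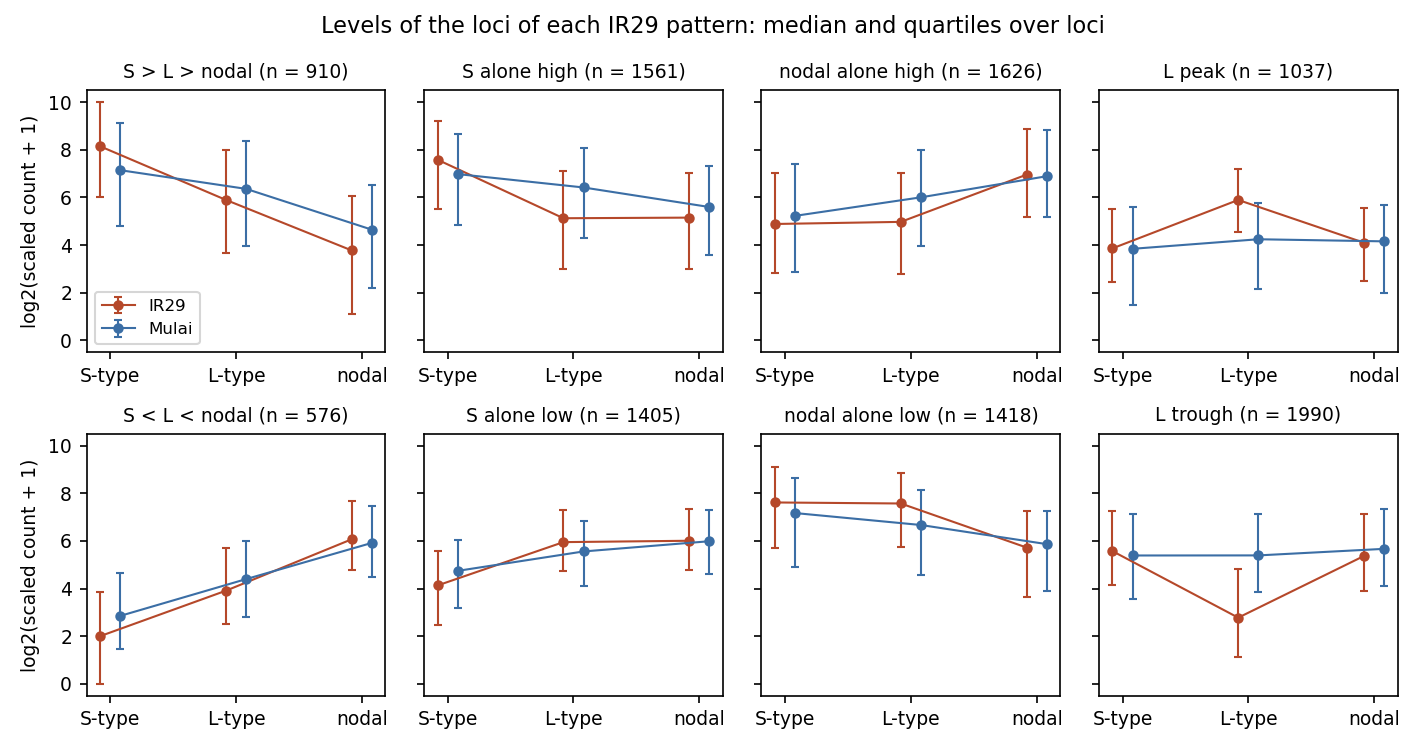
Median and quartiles over loci of log2(scaled count + 1) in S-type, L-type and nodal roots, for the loci of 8 IR29 patterns, in IR29 (left points) and Mulai (right points). The Mulai medians follow the IR29 order for the graded loci, keep the same root type highest or lowest for loci set apart in S-type or nodal roots, with L-type between the others, and are nearly level for L peaks and L troughs.

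For most patterns the share of loci followed in the numbering by a locus of the same pattern was above that pattern's share of all loci, which is a description with no test. Of the loci with S-type highest whose next identifier was also among the 20256, 11.2% were followed by a locus of the same pattern, against 4.49% of all loci. The share was 10.8% for loci high in S-type roots alone (7.71% of all), 11.6% for those high in nodal roots alone (8.03%), 9.62% for L peaks (5.12%) and 11.6% for L troughs (9.82%). For the small-step loci it was near their share of all loci, with 3.19% against 2.83% where S-type was highest and 2.76% against 3.33% where nodal was highest. Of the even loci 34.8% were followed by an even locus, against 32.3% of all. The table does not say how its identifiers are ordered along the genome, and reads shared between similar or overlapping neighbours could not be assessed.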

How the data were processed

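Fragments were measured in 6 rice root libraries, 1 for each of 2 cultivars and 3 root types. The submitters' processing notes list Trimmomatic 0.32 and Bowtie, and also TopHat2 2.0.11, Cufflinks 2.2.1, Cuffdiff 2.2.1 and the build IRGSP-1.0, without options or annotation. The authors deposited a signal per locus, a fragment count multiplied by 1 factor per library, with a variance. Every value above 0 was a whole multiple of 1 step (100% within 0.1 of a read), and division by it recovered whole reads. A further 21 columns were not used. None of the identifiers matched the 39387 genes of the RefSeq table (0 matches, assembly ASM3414082v1).

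Folds, patterns and intervals were computed in Python 3.11.15 with scipy 1.17.1, on log2(value + 1). With 1 library per root type, no count test was possible within IR29. Ratios of reads carry exact 95% Clopper-Pearson counting intervals; against 0 reads a floor of 3 reads per library was used. Loci given by identifier are the 2 per direction with the largest smaller step, at a mean of at least 100. Alternatives were equal read totals, TMM (edgeR 4.0.16), median of ratios, pseudocounts 0.5 and 5, no minimum or 50, and a 4-fold step. The assignment of patterns was tried on simulated data with counting noise alone. The steps put in were 4-fold, for part of the patterns, at loci with a mean of at least 50. That trial does not show how well steps near 2-fold or low loci are assigned. The loci, patterns and rules were chosen with earlier results of these data known.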

Additional observations from a re-analysis of the deposited data

Results flagged for a closer look

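XLOC_018696 stood out because S-type and L-type roots differed in opposite directions in the cultivars, by at least a step in each. Its S-type over L-type log2 fold was 5.49 in IR29 and -1.29 in Mulai. In IR29 the fold rests on 2 reads in L-type roots, against 299 reads in Mulai L-type roots. The difference was not tested, since each fold comes from 1 library per root type. XLOC_027530, the other L trough given by identifier, also differed in direction, with 5.86 in IR29 and -0.91 in Mulai, the latter under a step. Both loci were chosen for their low L-type values in IR29.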

How the results depend on the processing

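No paired analysis was possible because each cultivar and root type had 1 library; for the same reason no library was left out. Counts by pair and pattern that moved by over 1.5 times follow, and the cause was not tested. The median L-type position is given as well where it left its interval over loci, which is no spread between replicates. Where the minimum value was changed, fewer or more loci entered.

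With a 4-fold step, loci above and below numbered 2730 and 2061 (S-type against nodal), 1155 and 2072 (L-type against nodal) and 2430 and 1107 (S-type against L-type). The patterns then held 169 monotonic loci with S-type highest and 90 with nodal highest, 527 low in S-type alone, 850 high and 570 low in nodal alone, 189 L peaks, 669 L troughs and 13401 even loci. In that setting 898 loci had the same step pattern in both cultivars, and the median L-type position was 0.468.

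The comparison with the deposited SDs was added after the data were seen. It counted loci a step apart whose ranges of 1 SD to either side of each value did not overlap. These were 2455 loci above and 1693 below (S-type against nodal), 937 and 1574 (L-type against nodal) and 2015 and 698 (S-type against L-type). By pattern they were 127 and 31 (monotonic, S-type and nodal highest), 685 and 206 (S-type alone, high and low), 503 and 350 (nodal alone, high and low), 93 L peaks and 327 L troughs. In each pair and direction the ranges overlapped at most of the loci a step apart. With SDs near 51% of the value, this rule asks for a larger fold than a step and is not a separate check.

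With a minimum value of 50, which left 15131 loci, 3181 were below in S-type against nodal, 2896 below in L-type against nodal and 2192 below in S-type against L-type. There were 324 monotonic loci with nodal highest, 865 low in S-type alone, 563 L peaks and 1138 L troughs, and the position was 0.517. With no minimum value (25719 loci) there were 1698 L peaks, 2625 loci high in S-type alone and 2921 high in nodal alone. Equal totals gave 5849 loci below in S-type against L-type, 2405 low in S-type alone, 1733 L peaks and a position of 0.447. A pseudocount of 5 gave 301 monotonic loci with nodal highest. The other 105 such values stayed within 1.5 times or their interval. A further 29 values of detail moved, most of them counts of loci with the same pattern in Mulai: with a 4-fold step 2 L troughs and 29 loci with S-type highest had it, and at equal totals 139 loci high in S-type alone. The small-step loci with S-type highest numbered 356 at equal totals, and partial L peaks 528 with a 4-fold step. Of the 168 folds of the loci given by identifier, 166 stayed within their counting interval. These include the settings with no minimum and a minimum of 50, which cannot change a fold and so show nothing about it. The sign differed in 1, S-type over nodal at XLOC_019484, which was 0.20 as reported and -0.10 at equal totals, both under a step.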
